A study of Mus musculus with 26 samples.

Results

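Lungs of Il10-/- mice exposed to ozone (O3) for 24 hr were compared with lungs of Il10-/- mice kept in filtered air, on 6 of the 26 arrays of the series. The 6 arrays were 2 of O3 and 4 of air. They were chosen by their titles and by measured values: the arrays of O3 at 24 hr numbered 1 and 3 were kept, and array 2 was left out because transcripts of lung epithelium were nearly missing from it. The air arrays were 2 of 24 hr and 2 of 48 hr. All 6 were from left lungs of male mice 6-8 weeks old of the strain labelled B6.129P2-Il10tmlCgn/J, which carries a targeted Il10 allele in every cell, so that the air controls were labelled Il10-/- as well. The O3 dose was 0.3 ppm. Il10+/+ mice were C57BL/6, of the same sex, age and supplier, with 4 air arrays and 3 arrays of O3 at 24 hr. The series names its arrays biological replicates, and the labels do not say whether RNA of several mice was pooled. The question was which transcripts changed at the earliest exposure time in mice without IL-10.

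IL-10 is a cytokine of macrophages, T cells and B cells that restrains inflammation. Its receptor signals through the kinases JAK1 and TYK2 to the transcription factor STAT3, which other cytokines of the IL-6 family also activate, so that STAT3 targets can be induced without IL-10. O3 is an oxidant gas that injures the epithelium of the airways and the alveolar ducts and draws neutrophils into the lung. Oxidants also release the transcription factor NRF2, which induces genes for glutathione use and for the reduction of quinones.

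Before the comparison, the arrays were examined for their labels and tissue. The epithelial genes, which chose the arrays and carry no test, were at full level on all 6. The surfactant gene Sftpc lay between 14.29 and 14.48 on the log2 scale on 25 arrays, and at 6.36 on the array left out. The surfactant gene Sftpb lay between 13.19 and 13.65 on the 25 arrays and at 5.19 on the array left out. The median difference of the 11 alveolar type 2 markers between the O3 and the air arrays was 0.00, and that of the 10 club cell markers was -0.10. The Il10 probe set was not lower in Il10-/- mice. Its log2 value lay between 3.92 and 4.25 on the Il10+/+ arrays, at 3.87 on the array labelled Il10-/- air 48 hr replicate 1, and between 6.29 and 7.71 on the other Il10-/- arrays of the 25. Where the probe set lies relative to the altered part of the gene was not known here, so its signal does not check the deletion. The array labelled Il10-/- air 48 hr replicate 1 had the Il10 value of the other genotype, and it also had values near those of the Il10+/+ air arrays for Nnt, Wdfy1, Pam and Ctse. Nnt, the mitochondrial transhydrogenase, was at 7.66 there, at 7.47 to 7.89 on the Il10+/+ air arrays, and at 8.90, 8.90 and 9.18 on the other Il10-/- air arrays. Ctse, the protease cathepsin E, was at 5.55 there, at 5.64 to 6.33 on the Il10+/+ air arrays, and at 8.81, 8.40 and 7.88 on the other Il10-/- air arrays. The counts below were therefore also taken without that library.

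The 2 O3 arrays differed from each other more than any of 23 other pairs did. The median absolute difference between them over the 12394 genes was 0.27 on the log2 scale, and 1048 genes differed by over 1. In the other pairs, which were the further pairs of 1 group among the 25 arrays and all pairs of Il10-/- air arrays, the median absolute difference lay between 0.11 and 0.21 and 14 to 191 genes differed by over 1. Across all probe sets, Pearson's r between the 2 O3 arrays was 0.9645. With 2 such arrays, the value or the change on each O3 array is given for most genes named below. Where only a mean change or a p-value is given, the 2 arrays can differ.

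Against the 4 air arrays, 164 genes were higher and 95 lower at an adjusted p under 0.05, 1.32% and 0.766% of the 12394 tested. These counts rest on a fit over 25 arrays in which the spread comes from all groups. With only the 6 arrays compared, 0 genes passed, although 1058 had an unadjusted p under 0.05 and all 259 called genes were among them, and the lowest adjusted p was 0.0653. With arrays weighted by their own spread, 0 genes passed as well, 599 had an unadjusted p under 0.05, and the lowest adjusted p was 0.125. The calls are thus calls given the spread of the other groups, which was smaller than that between these 2 arrays. Without the library labelled Il10-/- air 48 hr replicate 1, 103 genes were higher and 58 lower, of which 99 and 56 were among the calls with it. Without Il10-/- air 24 hr replicate 1, the counts were 104 and 57, and without air 48 hr replicate 2 they were 129 and 61. Without O3 array 1 they were 369 and 415, and without O3 array 3 they were 837 and 756, each time with 1 O3 array taken to vary like the other groups. Of the 49 named genes that were called, Sprr1a, Actc1, Sh3bgrl, Rasa2, Lif, Cxcl5, Gpx2, Fkbp5, Fos, Junb, Adamts4 and Clec4d did not pass without the library labelled Il10-/- air 48 hr replicate 1, at adjusted p-values of 0.0537 to 0.103. The named genes that lost the call numbered 13 without Il10-/- air 24 hr replicate 1, 4 without air 24 hr replicate 2, 9 without air 48 hr replicate 2, 19 without O3 array 1 and 9 without O3 array 3. Most of the named calls rested on pooling the air of both times. With air of 24 hr alone, 40 genes were higher and 14 lower, and 32 of the 49 lost the call, among them Igf1 (adjusted p = 0.103), Retnla (0.0663) and Ccl17 (0.0586). The 17 that passed were Saa3, Mt2, Mt1, Ch25h, Socs3, Lrg1, Il4ra, Il1r2, Cd14, Akr1b8, F3, Gadd45g, Mcm7, Aspn, Postn, Rad50 and Mndal.

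**Figure D1:**
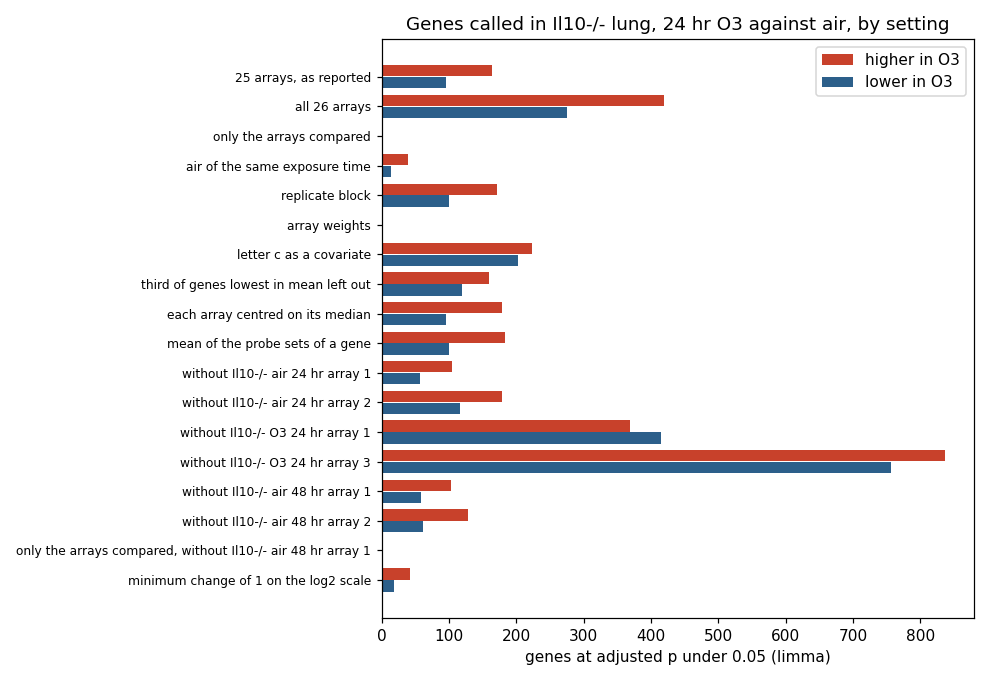
Number of genes higher (red) and lower (blue) in O3 than in air at an adjusted p under 0.05 (horizontal axis) under each setting (vertical axis). The 25-array fit gave 164 and 95, and the fit with only the arrays compared and the fit with array weights gave 0.

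A count that needs no model was also taken. Both O3 arrays were above all 4 air arrays for 1420 genes, 11.5% of those tested, and below all 4 for 720 genes, 5.81%. With a mean change of at least 1 on the log2 scale, 49 genes were higher and 46 lower without overlap, 0.395% and 0.371% of the genes tested. Of the genes called, 161 of the 164 higher and 91 of the 95 lower had no overlap. The O3 and air arrays also differed in a letter c that ends some source names, whose meaning the labels do not give. It marks O3 array 1 and 3 of the 4 air arrays, and not O3 array 3 or Il10-/- air 24 hr replicate 2. The 18 hybridization control probe sets, which are added to the sample and not made by the lung, had a mean log2 value of 8.99 on O3 array 1 and 8.59 to 9.24 on the 3 air arrays with the letter. They had 11.2 on O3 array 3 and 11.7 on the air array without it. Over the series the letter did not go with these values: the 5 arrays with it lay between 8.59 and 11.2, and the other arrays of the 25 between 8.43 and 11.7. Among the O3 arrays of the 25, the values went with the array number. Those numbered 3 lay between 10.5 and 11.3, and those numbered 1 or 2 between 8.43 and 9.53. What part this had in the differences between O3 arrays 1 and 3 was not tested. With the letter as a covariate, 223 genes were higher and 202 lower.

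Among the largest rises were acute phase genes and targets of STAT3. Saa3, an acute phase protein of macrophages and epithelium, had log2 values of 5.74, 5.97, 6.14 and 6.37 in air and 10.87 and 7.64 in O3. Both O3 arrays were above all air arrays, but array 1 was over 3 units above array 3. The mean change was 3.20 ± 0.52 (SE), a 9.20-fold rise (adjusted p = 0.00197). Socs3, the inhibitor that STAT3 induces to shut off its own receptors, had values of 8.33, 8.45, 8.11 and 8.58 in air and 10.39 and 10.06 in O3. Here the 2 O3 arrays lay close together, and Socs3 rose 3.63-fold (log2 change 1.86 ± 0.27, adjusted p = 0.000663). Lrg1, a secreted glycoprotein of the acute phase, was at 9.69, 9.87, 10.04 and 9.60 in air and at 12.04 and 10.91 in O3, a rise of 1.67 ± 0.29 (adjusted p = 0.00299). The IL-4 receptor chain Il4ra had the lowest adjusted p of the named genes, 8.06e-05. It was at 8.66, 8.72, 8.45 and 8.49 in air and at 9.63 and 9.80 in O3, a rise of 1.14 ± 0.12.

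Of the 28 measured acute phase genes and STAT3 targets, 11 were called higher and 0 lower and 15 were higher without overlap, beside 1.32% and 11.5% of all genes, and the median change was 0.70. Over all 12394 genes the median change was 0.04. The list's median was 1.01 on O3 array 1 and 0.49 on O3 array 3. Besides those above, the 11 were the iron-binding protein Lcn2 (1.31), the protease inhibitor Serpina3n (1.16), the heme-binding protein Hpx (1.08), the kinase Pim1 (0.99), the NF-kappaB cofactor Bcl3 (0.99), the AP-1 subunit Junb (0.96) and Steap4 (0.95), an iron reductase, as changes on the log2 scale. Of 21 genes of the IL-10 receptor and the JAK-STAT3 pathway, only Socs3 was called, beside 1.32% of all genes called higher. Without overlap, 2 of the 21 were higher and 1 lower, beside 11.5% and 5.81% of all genes, and the median change was 0.02. Stat3 was at 11.18, 11.64, 10.94 and 11.11 in air and at 11.45 and 11.87 in O3, a change of 0.44 ± 0.19 (adjusted p = 0.241). Of 10 genes of the IL-6 family, 2 were called higher and 3 were higher without overlap, beside 1.32% and 11.5% of all genes. Il6st, the shared receptor chain gp130, rose by 0.60 ± 0.11 (adjusted p = 0.00689) and the cytokine Lif by 0.67 ± 0.17 (adjusted p = 0.0371). Il6st changed by 0.29 on O3 array 1 and by 0.92 on O3 array 3, and Lif by 1.09 and 0.25. Il6 was at 4.19, 4.00, 4.18 and 4.09 in air and at 5.25 and 4.19 in O3, so that O3 array 3 did not exceed the air arrays. Its change of 0.60 ± 0.26 did not pass (adjusted p = 0.228).

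**Figure D2:**
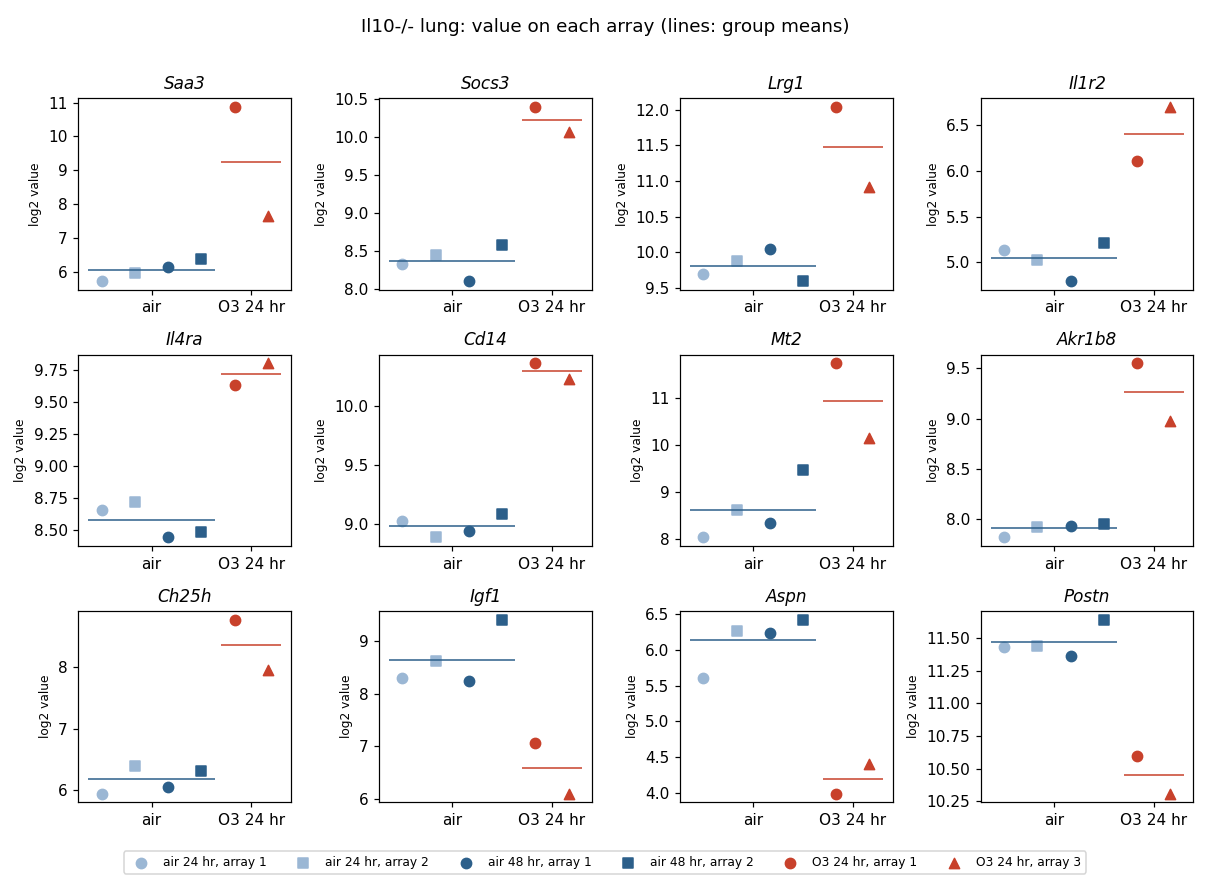
Log2 value (vertical axis) of 12 genes on each of the 6 arrays, with lines at the group means; blue symbols are air and red symbols are O3. Socs3, Il4ra and Cd14 had O3 values close together, and Saa3 had values of 10.87 and 7.64.

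Promoter sequences of 3 genes called higher, Socs3, Il1r2 and Mt2, are shown because the letters of a STAT site and of an NRF2 site can be read in them. They are the 250 bases before the transcription start from RefSeq in the build GRCm38.p6, written 5′ to 3′ on the strand of the gene. Capitals mark TTCNNNGAA, the STAT motif, in Socs3 and Il1r2, and TGACNNNGC, the motif of NRF2 with a small MAF protein, in Mt2, and both strands were searched. The Socs3 window is chr11:117969367-117969616 on the minus strand, the Il1r2 window is chr1:40085843-40086092 on the plus strand, and the Mt2 window is chr8:94172368-94172617 on the plus strand.
Socs3: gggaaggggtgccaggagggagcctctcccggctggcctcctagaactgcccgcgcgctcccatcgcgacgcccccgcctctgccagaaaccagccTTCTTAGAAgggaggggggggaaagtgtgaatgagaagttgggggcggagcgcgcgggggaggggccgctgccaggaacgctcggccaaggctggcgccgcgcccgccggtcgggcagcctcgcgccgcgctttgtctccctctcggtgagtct
Il1r2: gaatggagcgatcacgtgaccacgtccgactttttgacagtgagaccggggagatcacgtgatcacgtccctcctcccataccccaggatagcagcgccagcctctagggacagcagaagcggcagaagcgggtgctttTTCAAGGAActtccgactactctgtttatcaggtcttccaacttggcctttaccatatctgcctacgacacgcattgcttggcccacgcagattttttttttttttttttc
Mt2: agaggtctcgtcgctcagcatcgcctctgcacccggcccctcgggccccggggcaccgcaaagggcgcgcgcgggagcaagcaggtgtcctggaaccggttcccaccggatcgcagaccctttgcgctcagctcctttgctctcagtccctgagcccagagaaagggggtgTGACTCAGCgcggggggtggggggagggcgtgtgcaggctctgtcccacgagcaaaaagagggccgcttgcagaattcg
Of all 32851 promoters in the table, 7.02% held the STAT motif and 10.2% the NRF2 motif in this window. Of the 32 named genes called higher that had a promoter there, 4 held the first and 8 the second, and of 11 called lower 1 held each. Saa3, Akr1b8, Gpx2 and Nqo1 held neither motif. A named gene was counted if any of its promoters held the motif, while the percentages are of single promoters. The counts and the percentages are therefore not on the same scale. The matches describe letters only.

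Some genes of oxidant defense and metal binding rose. Mt2, a metallothionein that binds zinc and scavenges oxidants, was at 8.05, 8.62, 8.35 and 9.46 in air and at 11.72 and 10.13 in O3. The O3 arrays lay above all air arrays, and Mt2 rose by 2.31 ± 0.38 (adjusted p = 0.00208). Its neighbor Mt1 rose by 1.24 ± 0.19 (adjusted p = 0.00111), with 1.46 on O3 array 1 and 1.02 on O3 array 3. Akr1b8, an aldo-keto reductase, was even in air, at 7.82, 7.92, 7.93 and 7.95, and at 9.55 and 8.97 in O3, a 2.56-fold rise (adjusted p = 0.000218). Of 41 measured NRF2 targets and glutathione genes, 10 were called higher and 0 lower and 15 were higher without overlap, beside 1.32% and 11.5% of all genes, and the median change was 0.19. The other 9 called were Gpx2 (1.09), Nqo1 (0.89), Gsr (0.79), Cbr3 (0.79), Sod2 (0.76), Txnrd1 (0.72), Osgin1 (0.61), Abcc1 (0.54) and Pgd (0.41), which serve in peroxide removal, quinone and glutathione reduction, export and the supply of NADPH. The list's median was 0.26 on O3 array 1 and 0.31 on O3 array 3.

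The neutrophil chemoattractants Cxcl1 and Cxcl5 rose, with the higher values on O3 array 1. Cxcl1 was at 4.61, 4.94, 4.77 and 4.62 in air and at 6.90 and 5.24 in O3, a rise of 1.33 ± 0.30 (adjusted p = 0.0202). Cxcl5 was at 4.02, 4.02, 3.99 and 3.99 in air and at 5.81 and 4.32 in O3, a rise of 1.06 ± 0.27 (adjusted p = 0.044). O3 array 3 was above the highest air array by 0.30 for Cxcl1 and by 0.31 for Cxcl5. Cxcl2, which encodes MIP-2, was at 4.28, 4.37, 4.16 and 4.06 in air and at 4.61 and 4.31 in O3, and its change of 0.24 ± 0.11 did not pass (adjusted p = 0.291). Of the 9 genes of this group, only Cxcl1 and Cxcl5 were called higher, beside 1.32% of all genes. The same 2 were higher without overlap, beside 11.5% of all genes, and the group's median change was 0.19. Of 28 CC chemokines and receptors, 3 were called higher and 9 were higher without overlap, beside 1.32% and 11.5% of all genes. Ccr1, a receptor of monocytes and neutrophils, was at 6.40, 6.41, 5.79 and 6.07 in air and at 7.39 and 7.32 in O3, a rise of 1.19 ± 0.21 (adjusted p = 0.00424). Ccl17, a ligand for T cells, rose by 1.43 ± 0.27 (adjusted p = 0.00661), and Ccl9 by 0.72 ± 0.18 (adjusted p = 0.039). Ccl17 changed by 1.99 on O3 array 1 and by 0.87 on O3 array 3, and Ccl9 by 0.61 and 0.84.

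Some markers of neutrophils rose as well. Of 22, 3 were called higher and 0 lower and 6 were higher without overlap, beside 1.32% and 11.5% of all genes, and the median change was 0.45. The 3 called were Mmp8, Clec4d and Il1r2. Il1r2 is also counted below in the IL-1 family and among the glucocorticoid targets, so these counts share a gene. Clec4d changed by 1.25 on O3 array 1 and by 1.32 on O3 array 3. The mean log2 value over the list lay between 5.90 and 6.30 in air and was 6.68 and 6.62 on the O3 arrays. Mmp8, neutrophil collagenase, was at 4.88, 5.04, 4.71 and 4.56 in air and at 5.42 and 7.22 in O3, so that here array 3 was the higher one. It rose by 1.52 ± 0.33 (adjusted p = 0.0169). The granule protein Ngp was at 5.43, 4.87, 5.33 and 5.48 in air and at 7.96 and 5.17 in O3, high on array 1 only, and its change was 1.29 ± 0.94. S100a8 and S100a9, the calgranulins, varied among the air arrays, at 8.97 to 10.77 and 9.30 to 11.33, and were at 10.89 and 11.24 and at 11.27 and 12.08 in O3, without a call (adjusted p = 0.282 and 0.28). In bulk lung, more cells of a type and more RNA per cell cannot be told apart. Of 19 macrophage and monocyte markers, 0 were called and 2 were higher without overlap, beside 1.32% of all genes called higher and 11.5% higher without overlap. Their median change was -0.01.

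Of 15 genes of the IL-1 family, 2 were called higher and 1 lower, none of them a ligand, and the median change was 0.16. Over all genes, 1.32% were called higher and 0.766% lower. Without overlap, 4 of the 15 were higher and 2 lower, beside 11.5% and 5.81% of all genes. Il1r2, a decoy receptor that binds IL-1 without signaling, was at 5.14, 5.03, 4.80 and 5.21 in air and at 6.11 and 6.70 in O3. Both O3 arrays were above all air arrays, and Il1r2 rose by 1.36 ± 0.17 (adjusted p = 0.000218). The adaptor Myd88 rose by 0.56 ± 0.13 (adjusted p = 0.0237) and the receptor Il18r1 fell by 0.60 on the log2 scale (adjusted p = 0.0103). Myd88 changed by 0.94 on O3 array 1 and by 0.17 on O3 array 3, and Il18r1 by -0.67 and -0.52. Il1b was at 7.74, 6.99, 6.92 and 7.36 in air and at 8.78 and 7.82 in O3, a change of 1.05 ± 0.30 that did not pass (adjusted p = 0.0649). Il1rn, the receptor antagonist, was at 6.41, 6.43, 6.41 and 6.53 in air, at 7.77 on O3 array 1 and at 6.27 on O3 array 3, below all air arrays. Il1a, Tnf, Nos2 and Cd86 had adjusted p-values of 0.459, 0.426, 0.987 and 0.914. Il33 was at 9.49, 9.47, 9.80 and 9.97 in air and at 10.74 and 9.93 in O3 (adjusted p = 0.14). Of 31 NF-kappaB subunits and targets, 4 were called higher and 0 lower, and 9 were higher without overlap. The shares over all genes were 1.32% called higher and 11.5% higher without overlap, and the list's median change was 0.20. The lipopolysaccharide receptor Cd14 had the largest rise of the list. It was at 9.03, 8.89, 8.94 and 9.08 in air and at 10.36 and 10.23 in O3, a 2.48-fold rise (adjusted p = 0.000218).

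Other rises included epithelial, coagulation and stress genes. Sprr1a, a cornified envelope protein of injured epithelium, was at 5.44, 6.39, 6.15 and 5.56 in air and at 9.37 and 6.62 in O3, a rise of 2.10 ± 0.52 (adjusted p = 0.0362) that array 1 carried. Ch25h, which makes 25-hydroxycholesterol, was at 5.95, 6.40, 6.06 and 6.32 in air and at 8.76 and 7.94 in O3, a 4.51-fold rise (adjusted p = 0.000577). F3, tissue factor, which starts coagulation, was at 7.25, 7.24, 7.10 and 7.65 in air and at 8.77 and 8.71 in O3, a 2.70-fold rise (adjusted p = 0.00214). Retnla, a protein of alternatively activated macrophages and airway epithelium, was at 10.18, 10.56, 10.39 and 10.18 in air and at 12.98 and 10.90 in O3 (1.61 ± 0.33, adjusted p = 0.0119). Of 27 immediate early and AP-1 genes, 5 were called higher and 0 lower, and 11 were higher without overlap. The shares over all genes were 1.32% called higher and 11.5% higher without overlap, and the list's median change was 0.23. Fos, which is induced within minutes of a stimulus, was at 9.24, 9.43, 9.38 and 9.79 in air and at 10.19 and 10.64 in O3 (adjusted p = 0.0281). Of 25 glucocorticoid targets, 5 were called higher and 6 were higher without overlap, beside 1.32% and 11.5% of all genes. Among the 5 were Il1r2, Gadd45g and Fkbp5, an FK506-binding protein that tempers the receptor. Fkbp5 changed by 0.629 on O3 array 1 and by 2.037 on O3 array 3, and Gadd45g by 1.503 and 1.251. The median of the glucocorticoid list was -0.12 on O3 array 1 and 0.78 on O3 array 3. Of 32 interferon-stimulated genes, 1 was called higher and 8 were higher without overlap, beside 1.32% and 11.5% of all genes. The 1 called was Ifit3, which rose by 0.90 ± 0.20 (adjusted p = 0.0169), with 0.565 on O3 array 1 and 1.24 on O3 array 3. Of 20 listed heat shock proteins, 0 were called and 4 were lower without overlap, beside 0.766% of all genes called lower and 5.81% lower without overlap. The chaperone Hspa4l, which was called lower, was not on the list. The list's median change was -0.36, with -0.10 on O3 array 1 and -0.53 on O3 array 3. Without Il10-/- air 48 hr replicate 2 the median was -0.17. Sterol synthesis genes, complement genes, genes of MHC class II and costimulation and markers of T, NK, red blood, endothelial and fat cells had 0 calls. Over all genes, 1.32% were called higher and 0.766% lower. With 5 to 22 genes in each of these lists, 0 calls does not show that a list was unchanged. The median of the sterol list was 0.43 on O3 array 1 and -0.30 on O3 array 3, and that of the NK list 0.05 and -0.90.

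Among the falls were genes of matrix and of fibroblasts. Igf1, a growth factor of mesenchymal cells and macrophages, was at 8.29, 8.62, 8.23 and 9.40 in air and at 7.07 and 6.11 in O3, with both O3 arrays below all air arrays. It fell 4.12-fold (log2 change -2.04 ± 0.41, adjusted p = 0.0114). Aspn, a small proteoglycan, was at 5.61, 6.27, 6.24 and 6.42 in air and at 3.99 and 4.40 in O3, a fall of 3.83-fold (adjusted p = 0.000472). Postn, a matrix protein of fibroblasts, was at 11.43, 11.44, 11.36 and 11.64 in air and at 10.60 and 10.31 in O3, a fall of 2.02-fold (adjusted p = 0.000218). Of 29 measured matrix and collagen genes, Igf1 and Postn were called lower and the follistatin gene Fst higher, beside 0.766% and 1.32% of all genes. Fst rose by 1.23 ± 0.27, with 0.52 on O3 array 1 and 1.94 on O3 array 3. Of the 29, 5 were lower without overlap, beside 5.81% of all genes, and the median change was -0.36. The 2 O3 arrays disagreed on collagens. Col3a1 was at 12.62, 12.78, 12.76 and 13.18 in air, and differed from their mean by 0.17 on O3 array 1 and by -2.41 on O3 array 3. Col1a1 was at 11.41, 11.45, 11.53 and 11.77 in air, at 11.28 on O3 array 1 and at 9.24 on O3 array 3. The list's median was 0.06 on array 1 and -0.74 on array 3. Other large falls were in St8sia4, which adds polysialic acid, the DNA repair gene Rad50, the chaperone Hspa4l, Tmem47, the interferon-inducible gene Mndal, Sh3bgrl and the Ras regulator Rasa2, by 2.36-fold to 3.05-fold. Rad50 was at 8.14, 8.30, 7.98 and 7.92 in air and at 6.26 and 7.35 in O3. St8sia4 was at 8.09, 7.24, 8.71 and 7.81 in air and at 5.94 and 6.76 in O3. Its highest air value came from 48 hr replicate 1, and its mean in Il10+/+ air was 9.22. Leaving that replicate out took the change in St8sia4 from -1.61 to -1.36 (adjusted p = 0.0385). With air of 24 hr alone, St8sia4 did not pass (adjusted p = 0.149).

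Of the genes of heart and striated muscle, most lay lower on both O3 arrays and 1 passed the test. Actc1, cardiac actin, was at 10.46, 10.07, 10.73 and 10.68 in air and at 9.68 and 8.05 in O3, a fall of 3.08-fold (adjusted p = 0.0353) that did not pass without Il10-/- air 48 hr replicate 1 (adjusted p = 0.0882). Of the 15 markers, 14 were below all 4 air arrays on both O3 arrays, against 5.81% of all genes, and the median change was -1.36. The mean log2 value over the list lay between 7.70 and 8.48 in air and was 6.98 and 6.40 in O3. Myl7, the light chain of atrial myosin, was at 10.57, 10.25, 11.08 and 10.61 in air and at 9.55 and 7.98 in O3 (adjusted p = 0.127). Mb, myoglobin, was at 9.28, 8.67, 9.91 and 9.28 in air and at 8.03 and 6.69 in O3 (adjusted p = 0.138). In Il10+/+ mice the list's median change was 0.45. The difference between genotypes was called for 0 of the 15, but also for 0 of all 12394 genes. That count therefore cannot set the list apart. At an unadjusted p under 0.05 in the limma fit, 10 of the 15 differed, beside 891 of all genes. The Il10+/+ arrays varied as well. Mb was at 7.93, 8.33, 9.55 and 9.45 there in air and at 8.81, 10.92 and 8.26 in O3, highest on O3 array 2. Cardiac muscle also lines the pulmonary veins of mice, and its share of each sample was not tested.

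The 2 O3 arrays disagreed on genes of cell division. Of 53 measured genes, Mcm7 and Gins1, which belong to the replication machinery, were called higher, beside 1.32% of all genes. Mcm7 rose by 0.68 ± 0.11 (adjusted p = 0.00208), with 0.785 on O3 array 1 and 0.566 on O3 array 3. Gins1 rose by 0.70 ± 0.14 (adjusted p = 0.00898), with 0.79 and 0.61. Without overlap, 7 of the 53 were higher and 4 lower, beside 11.5% and 5.81% of all genes, and the median change was 0.22. The list's median was 0.57 on O3 array 1 and -0.09 on O3 array 3. Rrm2, a subunit of ribonucleotide reductase, was at 5.49, 5.92, 5.27 and 6.05 in air, at 7.50 on O3 array 1 and at 4.57 on O3 array 3. Cdc20, of the anaphase promoting complex, was at 6.89, 7.52, 6.79 and 7.30 in air, at 8.11 and at 5.25. Mki67, the Ki-67 antigen, was at 5.60, 6.31, 5.95 and 6.39 in air and at 5.17 and 5.26 in O3, both below all air arrays, without a call (adjusted p = 0.217).

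**Figure D3:**
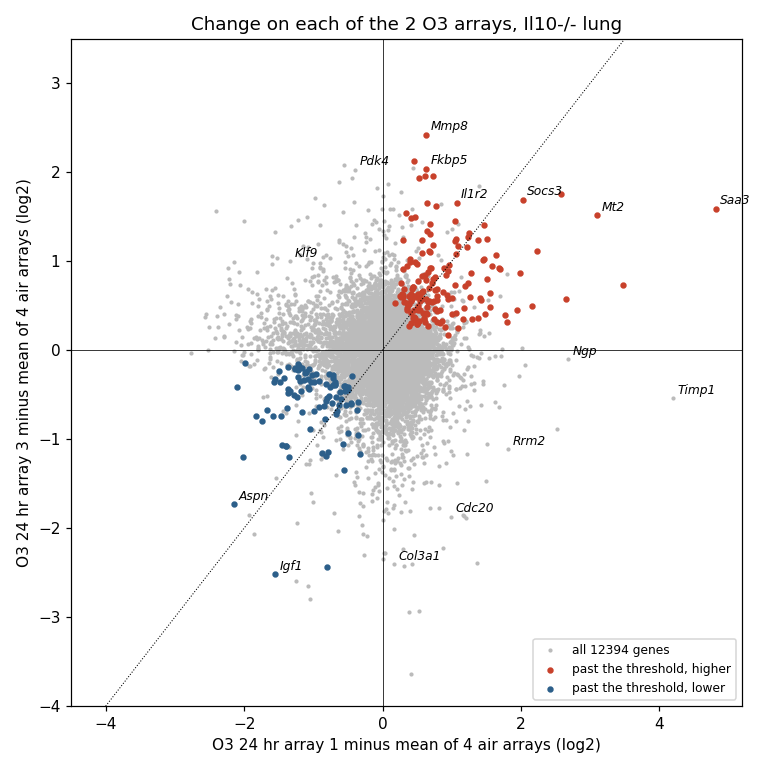
Difference from the mean of the 4 air arrays on O3 array 1 (horizontal axis, log2) and on O3 array 3 (vertical axis, log2) for 12394 genes; red and blue points are genes called higher and lower, and the dotted line marks equal change. Saa3 changed more on array 1, Mmp8 and Fkbp5 more on array 3, and Timp1, Rrm2, Cdc20 and Klf9 lie in quadrants where the 2 arrays differ in direction.

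The 2 O3 arrays differed in several gene groups. Array 1 exceeded array 3 by over 2 on the log2 scale for 51 genes, and array 3 exceeded array 1 for 88. Timp1, an inhibitor of matrix proteases, was at 7.08, 7.29, 7.58 and 7.36 in air, at 11.53 on array 1 and at 6.79 on array 3. Klf9, a target of the glucocorticoid receptor and the clock, was at 11.30, 11.38, 11.33 and 11.57 in air, at 10.06 on array 1 and at 12.39 on array 3. Pdk4, a kinase that restrains glucose oxidation, was at 5.34, 5.36, 6.16 and 6.60 in air, at 5.46 and at 7.89. Of 19 circadian clock genes, 0 were called, beside 1.32% of all genes called higher and 0.766% lower. Their median was -0.30 on array 1 and 0.42 on array 3. These genes also varied within air. The clock output gene Dbp was at 6.23 and 8.82 at 24 hr of air and at 5.26 and 4.71 at 48 hr, and 5.95 and 6.11 in O3. The 12 B cell markers had a median change of -0.09 on array 1 and -1.21 on array 3, and a mean log2 value between 6.16 and 7.42 in air. Ratios of 3′ to 5′ control probe sets of pyruvate carboxylase, a sign of RNA length, were 1.83 to 2.59 on the log2 scale in air and 2.58 and 2.91 in O3, highest on O3 array 1. What part these had in the results was not tested.

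**Figure D4:**
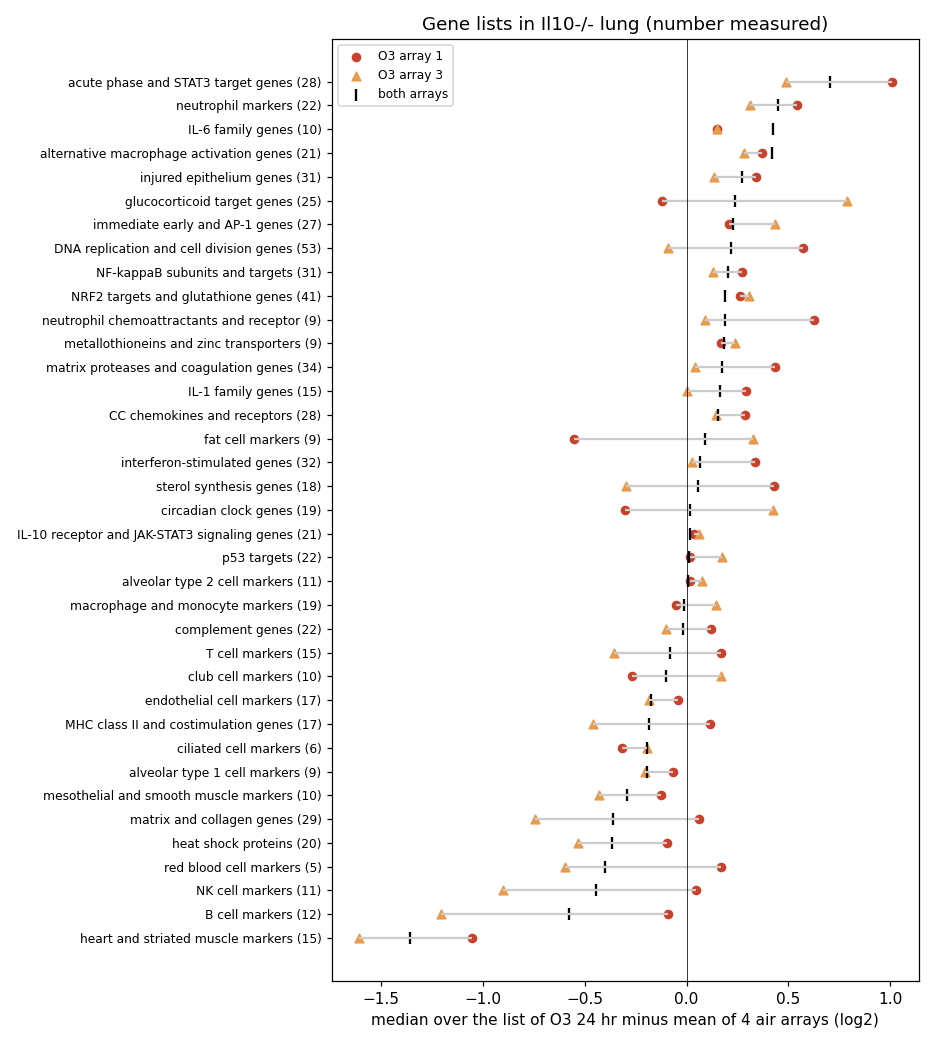
Median over each gene list (vertical axis, number of measured genes in parentheses) of the difference between O3 at 24 hr and the mean of the 4 air arrays (horizontal axis, log2), for O3 array 1, O3 array 3 and both. The acute phase and STAT3 list is highest, at 0.70, the heart and striated muscle list lowest, at -1.36, and the glucocorticoid list ranges from -0.12 to 0.78 between the arrays.

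The genotypes were set side by side at 24 hr. In Il10+/+ mice, 6 genes were called higher and 0 lower at 24 hr, 0.0484% of those tested for the rises, against the 4 air arrays of that genotype. Of the 164 genes called higher in Il10-/- mice, 148 had a positive change in Il10+/+ mice, where 52.6% of all genes did, and 5 were also called there. Of the 95 called lower, 82 had a negative change in Il10+/+ mice, where 47.4% of all genes did. The difference between genotypes in the 24-hr change was past the threshold for 0 genes in the limma fit, with 891 at an unadjusted p under 0.05 and the lowest adjusted p at 0.0659. That lowest p was for Il1r2, which lay between 4.86 and 5.15 on the 3 Il10+/+ O3 arrays and changed by -0.03 ± 0.15 there, a difference between the genotypes of 1.39. Saa3 changed by 1.71 ± 0.46 in Il10+/+ mice and by 3.20 in Il10-/- mice, and the difference of 1.49 had an adjusted p of 0.676. Socs3 changed by 0.88 ± 0.24 in Il10+/+ mice, and the difference of 0.98 had an adjusted p of 0.574. Ccl17 changed by 1.53 ± 0.24 in Il10+/+ mice (adjusted p = 0.0206), Cd14 by 0.89 ± 0.14 (adjusted p = 0.0206) and Akr1b8 by 0.85 ± 0.15 (adjusted p = 0.0388). In this fit, which kept Il10-/- air 48 hr replicate 1, no change was thus shown to be particular to Il10-/- mice. Without that array, the difference between genotypes passed for 1 gene higher and 0 lower.

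Values at 24 hr were also set beside those at 48 hr of O3 in Il10-/- mice. Of the genes tested, 244 were higher (1.97%) and 164 lower (1.32%) at 48 hr than at 24 hr, with the same 2 O3 arrays on one side. With only the arrays compared, 0 genes passed in either direction. Mki67 lay between 8.20 and 9.32 on the 3 arrays of 48 hr, all above the 2 of 24 hr, a rise of 3.64 ± 0.37 (adjusted p = 8.75e-06). Of the 53 cell division genes, 32 were higher at 48 hr than at 24 hr and 0 lower, with a median difference of 0.92. Saa3 lay between 10.06 and 10.99 at 48 hr, a range that held O3 array 1 and not array 3 of 24 hr (adjusted p = 0.22). Igf1, Aspn and Postn were higher at 48 hr than at 24 hr, Igf1 by 1.95 ± 0.44 (adjusted p = 0.0175), Aspn by 1.54 ± 0.28 (adjusted p = 0.0043) and Postn by 0.67 ± 0.13 (adjusted p = 0.00741). Il4ra fell by 0.64 on the log2 scale from 24 to 48 hr (adjusted p = 0.00819) and Fos fell by 0.94 (adjusted p = 0.0334). Socs3 lay between 9.77 and 10.11 at 48 hr (adjusted p = 0.609), and Lrg1 and Mt2 did not pass either. Because the 24-hr arrays stand in both comparisons, each is given by its own values. The gene Hat1 did not pass at 24 hr against air (adjusted p = 0.291) and was higher at 48 hr than at 24 hr by 0.66 ± 0.15 (adjusted p = 0.02).

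**Figure D5:**
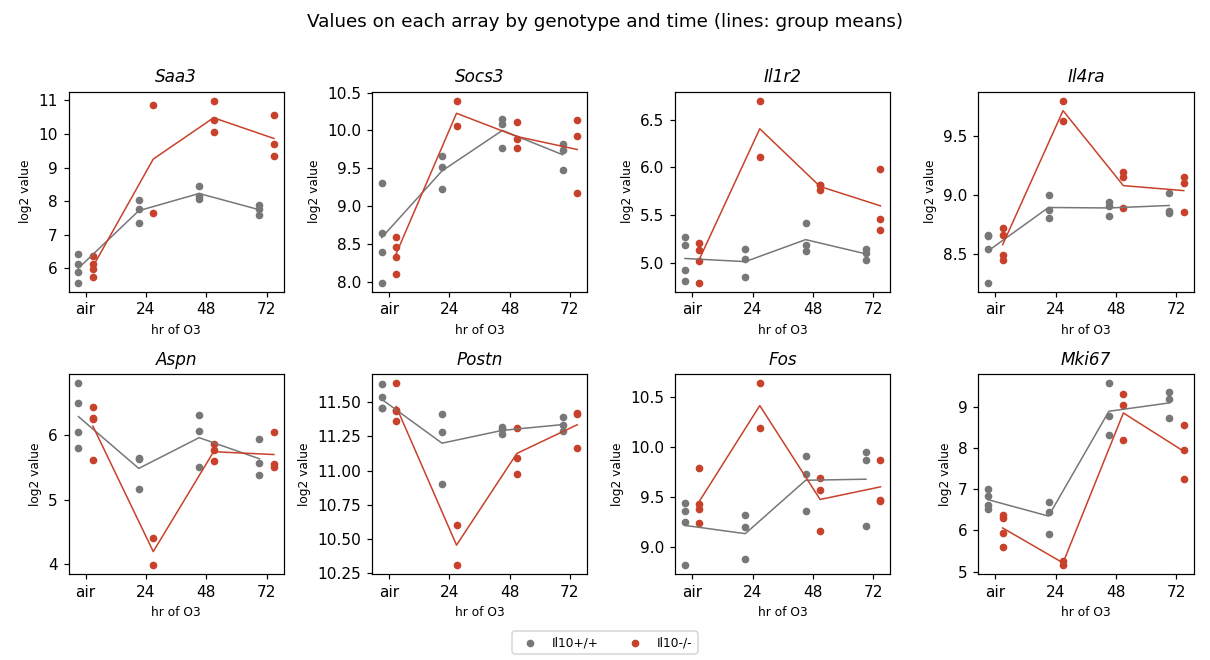
Log2 value (vertical axis) of 8 genes on each array in air and after 24, 48 and 72 hr of O3 (horizontal axis), for Il10+/+ mice in gray and Il10-/- mice in red, with lines through the group means. Il1r2 and Il4ra were highest at 24 hr in Il10-/- mice, Aspn and Postn lowest, and Mki67 was at 5.17 and 5.26 at 24 hr and between 8.20 and 9.32 at 48 hr.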

How the data were processed

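Left lungs of 26 arrays in 10 groups of genotype, exposure and time were measured on Affymetrix mouse expression arrays. The deposited log2 values had been computed by the authors with the Robust Multichip Average method of RMAExpress (background correction, quantile normalization, median polish). The version is not given in the sources used here. Values were used as deposited, and the number of arrays limits the precision. Of 22690 probe sets, 20393 had 1 gene symbol in the platform's annotation, 691 had several and 1606 none, and the brightest probe set was taken for each of 12394 genes (for 4958 there was over 1). Of the 126 called genes with over 1 probe set, 12 had a probe set of opposite sign, and 0 had one called oppositely. limma 3.58.1 in R 4.3.3 was fitted with a mean for each group over 25 arrays, with air of both times pooled within a genotype, and p-values were adjusted by Benjamini-Hochberg over all 12394 genes (threshold 0.05). Alternatives were all 26 arrays, only the arrays compared, air of the same time, a replicate block, array weights, the letter c as a covariate, low genes left out, median centring, the mean of probe sets, a minimum change of 1 and each array left out in turn. The fit of only the arrays compared without Il10-/- air 48 hr replicate 1 was added after the data were seen.

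The arrays, members and gene lists were chosen with earlier results of these data known. The genes named are the 10 largest rises and 10 largest falls among called genes without overlap, up to 3 such members of each of 37 lists, and the genes the paper names. Timp1, Myl7, Mb, Sln, Klf9, Pdk4, Dbp, Rora, Rrm2, Cdc20, Col1a1, Col3a1, Ngp, S100a8, S100a9, Sftpb and Sftpc were named after their values were seen, as were the members listed to complete a list's count. Steps were tested on simulated data. Plots used Python 3.11.15 and matplotlib 3.10.9.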

Additional observations from a re-analysis of the deposited data

Results flagged for a closer look

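Among the 91 genes checked, 3 had an air array far from the other 3 of Il10-/- mice, each time the array labelled air 48 hr replicate 1. Chance alone puts about 1 in 20 groups past this limit. Il10 was at 3.87 there, with a gap of 0.85 of the range of the 4 arrays. Mndal was at 9.3, the highest, with all 4 arrays within a narrow range, and Sln, a muscle transcript, at 9.07, the highest.

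The array left out, Il10-/- O3 24 hr replicate 2, carried signal outside the comparison. The median of its difference from the mean of the 4 air arrays was 3.94 for the B cell markers, 2.88 for the T cell markers and 3.48 for the genes of DNA replication and cell division. The hybridization control probe sets had a mean log2 value of 11.2 on O3 array 3 and of 8.99 on O3 array 1. No test was made of these values.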

How the results depend on the processing

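The counts of genes called in Il10-/- mice at 24 hr depended on which arrays gave the spread. With all 26 arrays, 420 genes were higher and 275 lower, 70 of the higher being among the 164 of the 25-array fit. With only the arrays compared, with and without Il10-/- air 48 hr replicate 1, and with array weights, 0 were higher and 0 lower. With air of the same exposure time, 40 and 14 were, with the letter c as a covariate 223 and 202, and with a minimum change of 1 on the log2 scale 43 and 18. Leaving out 1 array in turn gave 103 to 837 higher and 57 to 756 lower, the highest without O3 array 3. The genotype difference passed for 1 gene higher and 2 lower with the replicate block, and 2 higher with the mean of probe sets. Leaving out 1 array gave 0 to 157 higher and 0 to 400 lower. From 24 to 48 hr of O3, the counts were 106 higher with all 26 arrays, 0 and 0 with only the arrays compared, 9 and 0 with array weights, 280 lower with the block and 268 lower with the letter c, and 152 to 752 higher and 74 to 587 lower leaving out 1 array.

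Genes without overlap numbered 761 higher and 418 lower with array 2 included, of which 131 lower by at least 1. They numbered 2249 and 1373 with air of the same time, and 922 higher without the lowest genes. Leaving out 1 of the 6 arrays gave 1610 to 4487 higher, 49 to 152 of them by at least 1, and 860 to 3265 lower, 44 to 418 by at least 1. Fewer arrays leave fewer values to overlap.

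The replicate numbers were not taken to pair the arrays, since not every correlation of same-numbered deviations from the group means was over 0.1. It was 0.177 for air 24 hr with O3 24 hr (number 1), 0.21 for air 24 hr with air 48 hr (numbers 1 and 2), and -0.048 for air 48 hr with O3 24 hr (number 1). With 2 arrays in a group the deviations mirror each other. Air 24 hr number 2 with O3 24 hr number 3 had 0.177 as well, so these correlations cannot tell whether the numbers pair arrays. With the replicate block, 172 genes were higher and 100 lower at 24 hr, and 5 of the 49 named genes called lost the call. With all 26 arrays, the direction turned for Retnla (-0.04), F3 (-0.10), Gpx2 (-0.15), Fos (-0.01) and Maff (-0.09), without a call. Without O3 array 1, Klf9 (1.00), Rora (0.64) and Rrm2 (-1.11) passed in the direction opposite to their values without O3 array 3 (-1.34, -1.82 and 1.82). The causes of these changes were not tested. Median centring ended the call of 0 named genes.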
